A study of Homo sapiens with 6 samples.

Results

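The genes described here are 9 members of the JAK, STAT and SOCS families other than STAT3: the kinase genes JAK1, JAK2 and TYK2, the transcription factor genes STAT2, STAT5A, STAT5B and STAT6, and the inhibitor genes SOCS1 and SOCS2. They were taken from the table by symbol. Of the 30267 genes in the table, 8 rows carried these symbols, and STAT5A was not analysed here. Expression was measured by RNA sequencing after depletion of ribosomal RNA in SW839, an established human renal cell carcinoma line, and the study asked what knockdown of the E3 ubiquitin ligase RNF25 changes in these cells. The shRNF25 group held 3 libraries of cells infected with a lentivirus for an RNF25 hairpin, and the shControl group held 3 libraries of cells infected with the pLKO vector. Both groups were selected with puromycin as stable lines, a single hairpin name (shRNF25B) was given, and no time point was given. In the sample records, the treatment field of the controls named the shRNF25 plasmid as well, so the grouping used the titles, genotypes and library names.

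Cytokines and interferons bind receptors that have no kinase of their own and are held in pairs with JAK kinases. The activated kinases phosphorylate the receptor and the STAT proteins, which pair, enter the nucleus and bind DNA at GAS elements, or, for complexes that hold STAT2 and IRF9, at interferon-stimulated response elements (ISRE). SOCS proteins and CISH are made in response to the same signal and shut it off, by blocking the kinase or the receptor and by recruiting a ubiquitin ligase. In the kidney epithelium and its tumors the pathway is best known for responses to interferons and to cytokines of the IL-6 family.

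Values are normalized counts, the reads of a gene divided by a size factor of the library. The libraries held 18647460 to 19943154 reads on genes, with size factors of 0.905 to 1.10. Every shControl size factor (highest 0.9746) was below every shRNF25 size factor (lowest 1.049), although the read totals of the groups overlapped. Division by the size factor therefore lowered the shRNF25 values relative to shControl. Scaling by total reads alone was not run. RNF25 itself fell, from 694, 534 and 536 in shControl replicates 1, 2 and 3 to 214, 246 and 265 in shRNF25 replicates 1, 2 and 3. Its log2 fold change was -1.27 (SE 0.150, adjusted p = 0.000585 with limma). The knockdown libraries were more alike than the control libraries, with Pearson correlations of log2 values over the tested genes of 0.994 in each pair of shRNF25 and from 0.976 to 0.987 in the pairs of shControl. The label as a renal epithelial line was checked with marker genes. The keratin genes KRT8 and KRT18 had mean normalized counts of 28459 and 16985 in shControl and the renal transcription factor gene PAX8 had 127. The nephron gene LHX1 had only 0.702 and CA9, a marker of clear cell tumors, 23.6 in shControl and 4.94 in shRNF25, while PAX2 was not analysed here. Of 8 blood cell markers 4 had a row, and their summed normalized count was 13.0 to 25.7 in shControl and 12.4 to 22.2 in shRNF25, with the T cell gene CD3E at 3 reads or fewer in every library. Of 7 endothelial and fibroblast markers all had a row, summing to 499.7 to 715.6 and 512.6 to 670.6 respectively. These sums were made up mostly of PECAM1, at 385, 350 and 466 in shControl and 549, 399 and 407 in shRNF25, above PAX8. The fibroblast gene DCN was at 3 reads or fewer in every library. Within that list the endothelial cadherin gene CDH5 fell (log2 fold change -4.12) and KDR, the receptor gene for VEGF, rose (1.78). The 9 renal epithelial markers with a row summed to 54117 to 64681 in shControl and to 65187 to 69748 in shRNF25, sums made up mostly of KRT8 and KRT18. Within that list VIM, the vimentin gene, rose (1.31, adjusted p = 0.00805 with limma) and CDH1, the E-cadherin gene, fell (-0.48, adjusted p = 0.0129). EPCAM (-0.32) and PAX8 (-0.45) were lower without overlap but did not pass the test. KRT8 (0.38) and CDH2 (0.28) were higher without overlap and did not pass it either. The part of these marker differences in the results was not tested. In bulk RNA, fewer cells of a kind and less RNA per cell cannot be told apart.

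Sequence around a RefSeq start site is shown for the members that fell, STAT6 and JAK1. It is also shown for SOCS1 and CISH, the inhibitor genes whose windows held a match to a STAT element. Each line is a window of 300 bases, from 250 bases before to 50 bases after a RefSeq start site in GRCh38.p14, written 5′ to 3′ on the minus strand on which all 4 genes lie. Capitals mark matches to TTCNNNGAA or TTCNNNNGAA (the GAS element), to TTTCNNTTTC or its reverse complement GAAANNGAAA (the core of the ISRE), or to GGGNNTTTCC or GGAAANNCCC (a κB element, bound by NF-κB).
STAT6 (chr12:57110240-57110539): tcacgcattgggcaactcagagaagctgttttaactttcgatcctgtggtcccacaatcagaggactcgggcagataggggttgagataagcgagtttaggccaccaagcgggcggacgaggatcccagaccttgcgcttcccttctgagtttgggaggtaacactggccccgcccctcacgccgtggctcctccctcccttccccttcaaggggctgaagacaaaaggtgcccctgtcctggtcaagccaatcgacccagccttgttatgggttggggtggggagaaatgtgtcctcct
JAK1 (chr1:64966500-64966799): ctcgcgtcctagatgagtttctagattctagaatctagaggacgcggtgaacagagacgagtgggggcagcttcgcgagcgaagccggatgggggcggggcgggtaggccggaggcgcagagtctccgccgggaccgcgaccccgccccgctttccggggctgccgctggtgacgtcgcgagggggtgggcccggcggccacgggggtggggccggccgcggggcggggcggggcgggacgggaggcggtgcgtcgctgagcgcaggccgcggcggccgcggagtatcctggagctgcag
SOCS1 (chr16:11256155-11256454): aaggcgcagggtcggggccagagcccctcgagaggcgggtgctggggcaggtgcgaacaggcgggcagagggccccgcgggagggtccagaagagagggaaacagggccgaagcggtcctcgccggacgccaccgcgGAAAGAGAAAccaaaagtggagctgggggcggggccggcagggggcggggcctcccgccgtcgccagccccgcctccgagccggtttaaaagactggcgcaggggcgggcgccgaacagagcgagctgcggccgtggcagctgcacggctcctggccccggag
CISH (chr3:50611725-50612024): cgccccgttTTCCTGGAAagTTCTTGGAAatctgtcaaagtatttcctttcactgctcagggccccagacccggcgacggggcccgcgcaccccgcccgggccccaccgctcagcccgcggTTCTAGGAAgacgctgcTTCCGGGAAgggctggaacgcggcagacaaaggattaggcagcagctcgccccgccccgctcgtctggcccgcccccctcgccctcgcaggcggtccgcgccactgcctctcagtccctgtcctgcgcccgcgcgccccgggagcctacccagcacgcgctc
The CISH window held 4 GAS matches, TTCCTGGAA, TTCTTGGAA, TTCTAGGAA and TTCCGGGAA, which start 241, 230, 129 and 112 bases before the start site. At least 1 such match was present in 7.66% of the 35116 RefSeq windows of this length, and at least 4 in 7 windows (0.0199%). The SOCS1 window held a single ISRE core, GAAAGAGAAA, 113 bases before the start site, a motif present in 3.57% of windows. GAS matches with 4 bases between the arms were present in 6.44% of windows and κB matches in 1.91%. The windows of JAK1 (3 start sites), JAK2 (4), TYK2, STAT2, STAT5B and STAT6 held none of these motifs. Those of the inhibitor gene SOCS3, which was scanned beside CISH, held none either. Among 3 windows of STAT5A a single one held TTCCTCTGAA. SOCS2 was not scanned. The STAT6 window, the only one for this gene, lies inside the gene, which runs from 57095408 to 57132139 on the minus strand. Sequence upstream of that span was therefore not covered for STAT6. A match is only a string of letters, and its absence says nothing about sites elsewhere.

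Across the members, STAT6 and JAK1 fell and no member rose. Of the 8 rows, 7 passed the filter on low values (10 or more normalized counts in 3 or more libraries) and were tested with limma on log2(normalized count + 1). At an adjusted p below 0.05, 2 of the 7 were lower in shRNF25, beside 10.8% of all 16554 tested genes, and 0 were higher, beside 10.5%. No member was higher at an unadjusted p below 0.05 either, and edgeR and DESeq2 on the recovered reads each called the same 2 members lower and 0 higher. With a fold change of at least 1.5 as well, only STAT6 remained, beside 7.10% of all genes lower and 8.65% higher. In normalized counts, the 3 shRNF25 libraries lay wholly below the 3 shControl libraries for STAT6 and JAK1 (all genes, 21.8%). They lay wholly above them for no member (all genes, 20.7%), and the groups overlapped for the other 5. In reads before scaling, STAT6 and JAK1 were still wholly below. JAK2 (307, 226 and 210 reads in shControl, 363, 334 and 352 in shRNF25) was then wholly above. So was TYK2 (2629, 4160 and 4130 reads in shControl, 4773, 4830 and 4725 in shRNF25). The median log2 fold change of the 7 tested members was -0.29 and that of all tested genes -0.01.

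**Figure D1:**
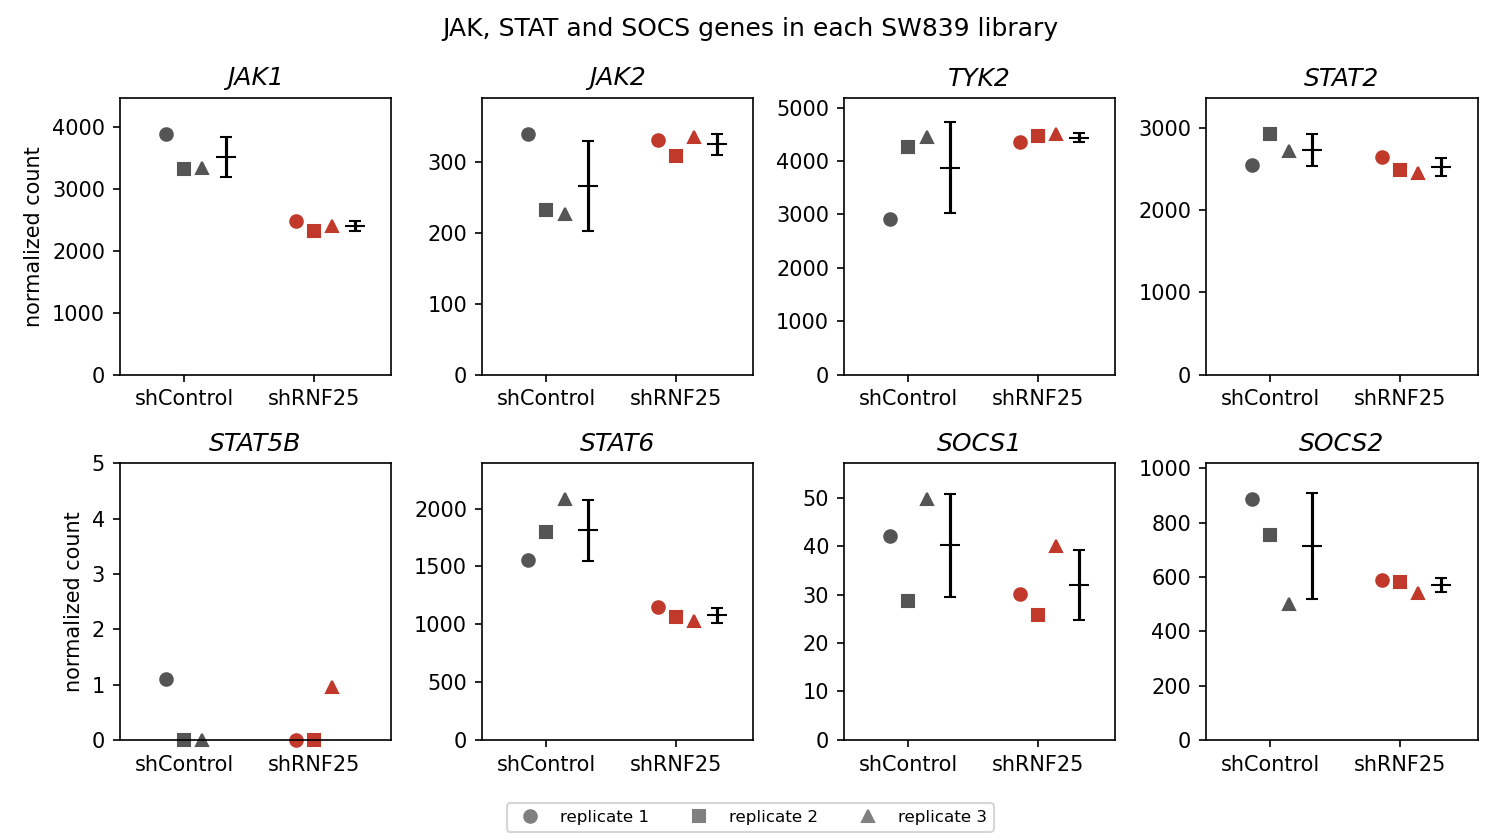
Normalized count (y axis, linear from 0, a separate scale for each gene) of the 8 genes with a row in each library, with grey markers for shControl, red markers for shRNF25 and a black bar for the mean ± SD of 3 libraries (no bar for STAT5B, which has 2 reads in all). JAK1 and STAT6 show no overlap between the groups, and the control libraries spread more widely than the knockdown libraries.

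STAT6, which carries the signal of IL-4 and IL-13, had normalized counts of 1558, 1799.6 and 2081 in shControl and 1149.9, 1059 and 1026 in shRNF25. Every knockdown library lay below every control library. The mean was 1813 ± 262 (SD, n = 3) in the control cells and 1078 ± 64.3 (SD, n = 3) after knockdown, with a log2 fold change of -0.74 (SE 0.127, adjusted p = 0.0039 with limma), which is 1.67-fold lower. The two-sided exact permutation test gave p = 0.1, the smallest that 3 against 3 libraries allow. STAT6 lies on chromosome 12 from 57095408 to 57132139 on the minus strand (GENCODE 29, GRCh38), where 1.75% of its exon bases overlap LRP1 and NAB2 on the opposite strand. Among all tested genes, those whose log2 values over the 6 libraries were most like STAT6 were SIN3B (Pearson r = 0.998), which encodes a corepressor scaffold, SLC6A8 (r = 0.997), the creatine transporter gene, and SPAG4 (r = 0.997). With 6 libraries and a difference between groups such values are common, and 472 tested genes exceeded 0.95.

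JAK1, the kinase shared by the receptors for interferons, the IL-6 family and many other cytokines, had normalized counts of 3881, 3316 and 3329.6 in shControl and 2480.2, 2313 and 2406 in shRNF25. The lowest control library was still well above the highest knockdown library. The mean was 3509 ± 322 (SD, n = 3) in the control cells and 2399.8 ± 83.6 (SD, n = 3) after knockdown, with a log2 fold change of -0.54 (SE 0.106, adjusted p = 0.00681 with limma), or 1.46-fold lower. The exact permutation p was 0.1. Without shRNF25 replicate 2 the log2 fold change was -0.52 and the adjusted p 0.0511, so that this call was lost. JAK1 lies on chromosome 1 from 64833229 to 64966504 on the minus strand. The genes most like it over the 6 libraries were MXI1 (r = 0.999), which encodes a MAX-binding repressor, DERA (r = 0.997), an enzyme of deoxyribose breakdown, and BPGM (r = 0.997), the bisphosphoglycerate mutase gene, and 638 tested genes exceeded 0.95.

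TYK2, which works with JAK1 at the type I interferon receptor and also serves IL-12 and IL-23 receptors, did not pass the test. Its normalized counts were 2906, 4268 and 4457 in shControl and 4349, 4460.5 and 4504 in shRNF25. The groups overlapped, shControl replicate 1 stood far below the other 5 libraries, and those 5 spanned a narrow range. The log2 fold change was 0.22 with a 95% interval from -0.14 to 0.58 (adjusted p = 0.355 with limma), and without shControl replicate 1 it was 0.02. TYK2 lies on chromosome 19 from 10350529 to 10380676 on the minus strand.

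JAK2, the kinase of the erythropoietin, growth hormone and thrombopoietin receptors, was much less abundant. Its normalized counts were 339, 232 and 227 in shControl and 331, 308 and 336 in shRNF25. Here shControl replicate 1 was the highest library of all, while the other two controls lay below them. The log2 fold change was 0.31 with a 95% interval from -0.07 to 0.70 (adjusted p = 0.225 with limma). Without shControl replicate 1 it was 0.50 (adjusted p = 0.00483), past the threshold, so the call on JAK2 turns on that library. JAK2 lies on chromosome 9 from 4984390 to 5128183 on the plus strand. The remaining kinase of the family, JAK3, which serves receptors with the common γ chain and is mainly a lymphocyte gene, had 161, 229 and 208 in shControl and 156, 140.4 and 141 in shRNF25. Its groups did not overlap, but its log2 fold change of -0.44 missed the threshold (adjusted p = 0.0912 with limma). JAK3 passed it without shControl replicate 1 (-0.58, adjusted p = 0.0063).

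Within a library, the balance of the kinases can be compared free of the library scaling, as shares of the summed normalized count per kilobase of exon. JAK1 made up 55.9%, 44.0% and 43.1% of JAK1, JAK2 and TYK2 in shControl and 36.1%, 34.1% and 34.6% in shRNF25. TYK2 made up 39.1%, 52.8% and 53.9% in shControl and 59.0%, 61.3% and 60.4% in shRNF25. The groups did not overlap for either share. The mean share of JAK1 fell by 12.8 percentage points and that of TYK2 was 11.7 points higher, each with an exact permutation p of 0.1, the smallest possible. Without shControl replicate 1 these differences were -8.65 and 6.89 points, and the groups of either share still did not overlap. JAK2 made up 5.01%, 3.15% and 3.01% in shControl and 4.93%, 4.65% and 4.94% in shRNF25, and its groups overlapped (exact permutation p = 0.4). The 3 shares of a library sum to the whole, so they are not independent of each other.

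**Figure D2:**
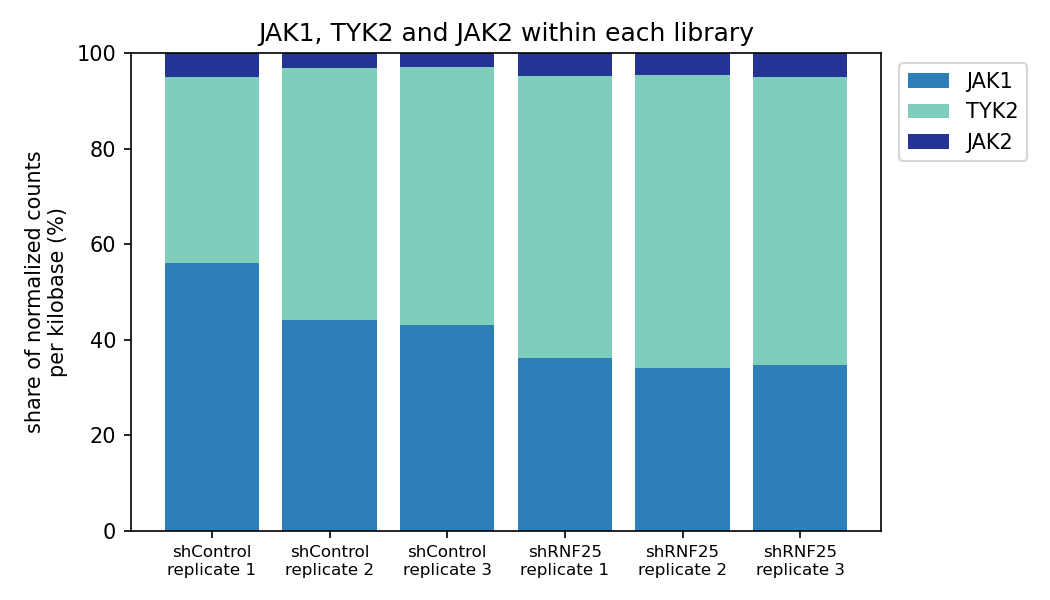
Share (y axis, percent, from 0 to 100) of JAK1, TYK2 and JAK2 in the summed normalized count per kilobase of exon, a stacked bar for each of the 6 libraries. JAK1 takes 43.1% to 55.9% in shControl and 34.1% to 36.1% in shRNF25, and TYK2 takes the largest share in every library but shControl replicate 1.

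STAT2, which acts in the interferon response, had normalized counts of 2548, 2927 and 2725 in shControl and 2645, 2486 and 2449 in shRNF25. The groups overlapped, and of all tested members STAT2 differed least between them. The log2 fold change was -0.11 with a 95% interval from -0.34 to 0.12 (adjusted p = 0.468 with limma), and quantile normalization of the log2 values turned its sign. STAT2 lies on chromosome 12 from 56341597 to 56360155 on the minus strand. IRF9, its DNA-binding partner, had a log2 fold change of -0.03 (adjusted p = 0.929), whose sign depended on the setting, and 48.4% of its exon bases overlap AL136295.5 on the same strand, so that its reads are uncertain.

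STAT5B was essentially without reads. It had 1, 0 and 0 reads in shControl and 0, 0 and 1 in shRNF25, so no fold change can be given, and a count of 0 allows up to 3 reads in a library. STAT5B and STAT5A, which carry the signals of prolactin, growth hormone and many blood cell cytokines, are neighbours on chromosome 17, at 42199168 to 42276707 on the minus strand and 42287547 to 42311943 on the plus strand. STAT3, which follows them, had 1, 0 and 0 reads in shControl and 0, 0 and 4 in shRNF25. Of the 50-base words of the longest coding transcript, 10% for STAT5B and 0% for STAT3 occurred in another gene of the families, and the part of shared sequence in these low counts was not tested.

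The lack of reads was not limited to the STAT genes. From DHX58 to ATP6V0A1, 13 consecutive protein-coding genes of GENCODE 29 had either at most 10 reads in every library (6 genes) or no row (7 genes, not analysed here), over 421 kb from 42101404 to 42522611 of chromosome 17. In order they are DHX58, KAT2A, AC099811.2, HSPB9, RAB5C, KCNH4, HCRT, GHDC, STAT5B, STAT5A, STAT3, CAVIN1 and ATP6V0A1. The 6 genes with a row summed to 52 reads over all 6 libraries, of which 31 were on ATP6V0A1 and 8 on KAT2A. The table held 0 rows that were at 0 in every library. On the flanks, NKIRAS2 had a mean normalized count of 744.6 and DNAJC7 of 960.9 before the run, and NAGLU of 285 and COASY of 2037 after it, while other flanking genes such as ZNF385C (15.1) were low too. The run and its limit of 10 reads were chosen after the values were seen. Low counts on the 6 genes with a row were present in both groups, so the run does not set knockdown and control apart. Within it shRNF25 replicate 3 held the most reads on ATP6V0A1 (10), KAT2A (5), STAT3 (4) and CAVIN1 (3). DNA was not measured in these samples.

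**Figure D3:**
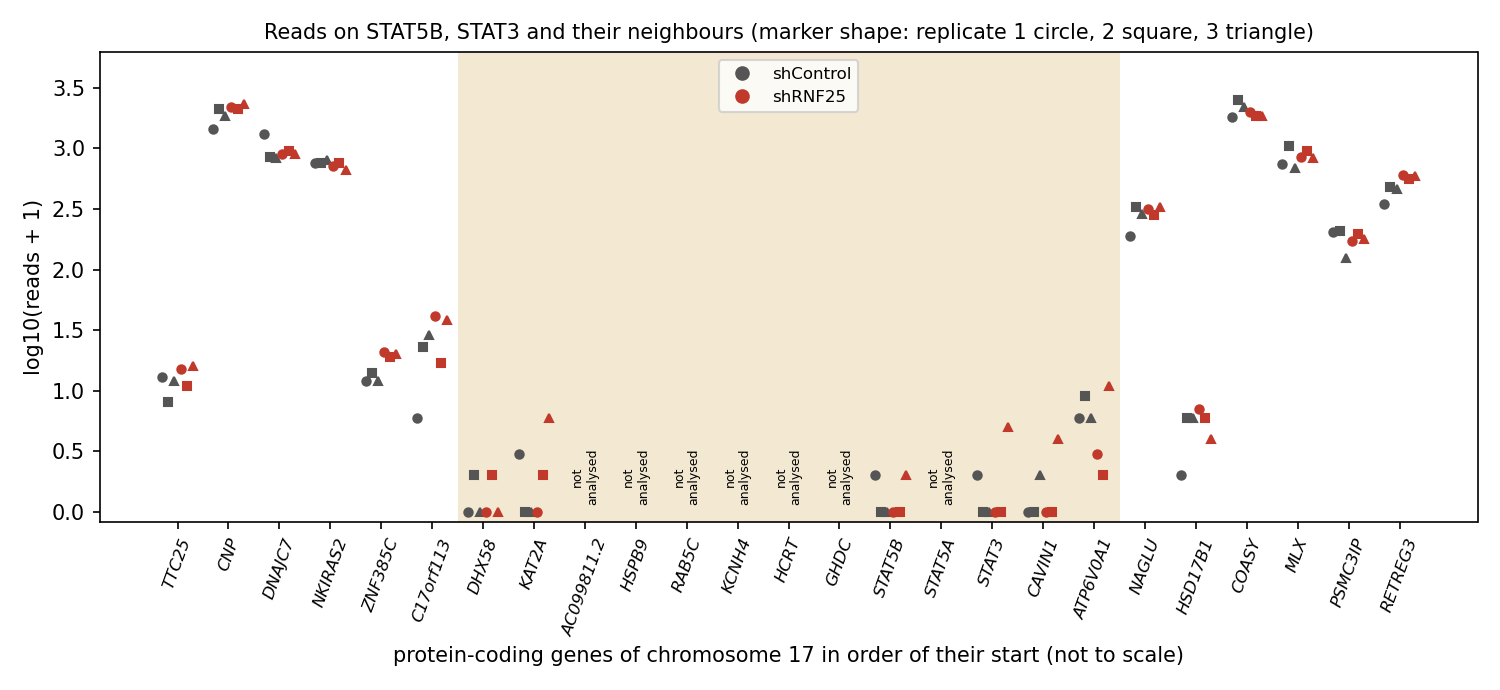
Reads per library, as log10(reads + 1) on the y axis, of protein-coding genes of chromosome 17 in the order of their start on the x axis (not to scale), grey for shControl and red for shRNF25. In the shaded run of 13 genes, the 6 with a row hold at most 10 reads per gene and library and 7 were not analysed, next to flanking genes such as CNP and COASY with mean normalized counts of 1998 and 2037.

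SOCS1, a direct inhibitor of JAK kinases that interferons induce, was low, with 38, 28 and 46 reads in shControl and 33, 28 and 42 in shRNF25. The normalized counts were 42.0, 28.7 and 49.6 in shControl and 30.1, 25.9 and 40.0 in shRNF25, and the groups overlapped. The log2 fold change was -0.31 with a wide 95% interval from -0.92 to 0.31 (adjusted p = 0.459 with limma), so a change of any size within that interval remains possible. SOCS1 lies on chromosome 16 from 11254405 to 11256200 on the minus strand.

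SOCS2, best known as a brake on growth hormone signaling, had normalized counts of 885, 755 and 501 in shControl and 588, 583 and 540 in shRNF25. The control libraries spread over a wide range that held all 3 knockdown libraries. The log2 fold change was -0.29 with a 95% interval from -0.72 to 0.15 (adjusted p = 0.322 with limma). Without shControl replicate 3, the lowest library, it was -0.52 (adjusted p = 0.0196), past the threshold, so the call on SOCS2 turns on that library. SOCS2 lies on chromosome 12 from 93569814 to 93583487 on the plus strand, where 4.09% of its exon bases overlap SOCS2-AS1 on the opposite strand. SOCS2-AS1 itself had a log2 fold change of -0.04 (adjusted p = 0.919).

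Of the other inhibitors with a SOCS box, CISH and SOCS3 were the lower ones. CISH, the STAT5-responsive inhibitor whose 4 GAS matches are shown above, had normalized counts of 143, 162 and 144 in shControl and 110.3, 89.6 and 98.2 in shRNF25, without overlap. Its log2 fold change was -0.59 (SE 0.155, adjusted p = 0.0262 with limma), but the call was lost in 6 of 16 alternatives, with adjusted p from 0.0121 to 0.131 over all of them. It was lost without shControl replicate 2 (adjusted p = 0.0713) and without shRNF25 replicate 1 (0.0624), 2 (0.131) or 3 (0.107). SOCS3, the inhibitor of the IL-6 receptor complex, had 735, 1131 and 1139.7 in shControl and 718, 651 and 701 in shRNF25. Its groups did not overlap, its log2 fold change was -0.51 and its adjusted p was 0.0637 with limma. DESeq2 called it lower (adjusted p = 0.028), as did limma without shControl replicate 1 (-0.72, adjusted p = 0.000207). Among all tested genes, limma called 10.8% lower and 10.5% higher. Of the 6 genes in this list beside the members, CISH was the only one called in the limma fit and 0 were called higher. At an unadjusted p below 0.05, 3 were higher (SOCS5, SOCS6 and SOCS7), of which DESeq2 called 2 and edgeR 0. The count of higher genes was 3 without shControl replicate 1 and 1 without shControl replicate 2 or 3.

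**Figure D4:**
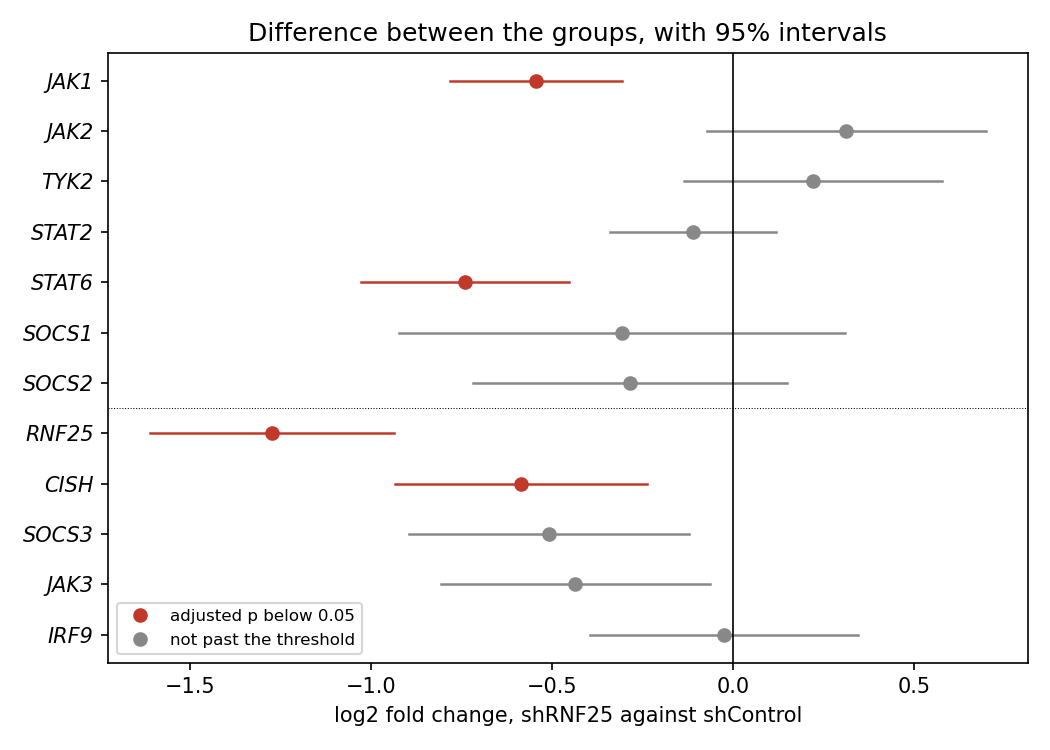
Log2 fold change of shRNF25 against shControl (x axis) with its 95% interval from limma for the 7 tested members (above the dotted line) and for RNF25 and 4 related genes (below it), red where the adjusted p was below 0.05. STAT6 (-0.74) and JAK1 (-0.54) are the members past the threshold, and the intervals of the other 5 include 0.

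Per kilobase of merged exon, the order of the levels in shControl was TYK2 (572 ± 125 normalized counts per kilobase, SD, n = 3), JAK1 (555 ± 51.0), STAT2 (447 ± 31.1), STAT6 (248 ± 35.9), SOCS2 (105 ± 28.9), JAK2 (43.1 ± 10.3), SOCS1 (22.3 ± 5.89) and STAT5B (0.057). Of these neighbours only TYK2 and JAK1 overlapped between libraries. In shRNF25 the order was TYK2 (655 ± 11.8), STAT2 (414 ± 17.1), JAK1 (379.9 ± 13.2), STAT6 (148 ± 8.81), SOCS2 (84.1 ± 3.91), JAK2 (52.7 ± 2.34), SOCS1 (17.8 ± 4.05) and STAT5B (0.049), and no neighbours overlapped. JAK1 and STAT2 had changed places. JAK1 had 614, 525 and 527 normalized counts per kilobase in shControl against 417, 479 and 446 for STAT2, and 393, 366 and 381 in shRNF25 against 433, 407 and 401. The coefficient of variation of each of the 7 tested members was larger in shControl than in shRNF25, by the most for TYK2 (21.8% against 1.80%) and SOCS2 (27.4% against 4.65%).

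The receptors that bind these kinases included more genes that fell than rose. Of 41 receptor genes, 38 had a row and 27 were tested, of which 9 were lower (8 by at least 1.5-fold) and 2 higher at an adjusted p below 0.05, beside 10.8% lower (7.10% by at least 1.5-fold) and 10.5% higher among all tested genes. Their median log2 fold change was -0.15. The largest falls were in IL13RA2 (log2 fold change -1.28, adjusted p = 0.00288), which binds IL-13 without passing on its signal, IL22RA1 (-1.23, 0.00133), IL7R (-0.92, 0.00186) and IFNLR1 (-0.90, 0.00179), the chain for type III interferons. IL20RA rose (0.82, adjusted p = 0.0034). IL3RA, the chain for IL-3, rose from 1.11, 3.08 and 11.9 to 25.5, 26.8 and 26.7 normalized counts (adjusted p = 0.0151), but lost its call without shControl replicate 2 (adjusted p = 0.0536) or without shRNF25 replicate 1, 2 or 3 (0.063, 0.0562 and 0.0578). The count of higher receptors, 2, ranged from 1 to 4 over the alternatives and was 4 without shControl replicate 1 or without shControl replicate 3, and 1 without any single other library. The count of lower ones ranged from 6 to 11.

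Among the lists examined, the ligands of these receptors held the largest changes. Of 41 ligand genes, 29 had a row and 15 were tested, of which 7 fell, each by at least 1.5-fold, and 0 rose. Among all tested genes, 10.8% were lower (7.10% by at least 1.5-fold) and 10.5% higher. Over the alternatives the count of lower ligands ranged from 6 to 7. An unadjusted p below 0.05 was reached by IFNE alone among the ligands with higher values, and edgeR called it while DESeq2 did not. The granulocyte factor gene CSF3 fell from 68.5, 107 and 118 normalized counts to 6.38, 1.85 and 6.67 (log2 fold change -4.14, adjusted p = 0.000254), and IL6 from 4543, 3551 and 3016 to 269, 235 and 264 (-3.83, adjusted p = 1.91e-06). CSF2, the granulocyte-macrophage factor gene, and IL24 followed (-3.07 and -2.45). Without shControl replicate 2 the count of higher ligands was 1. The median of the list was -0.50.

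Among genes known to respond to STAT5 or STAT6, some passed the test in each direction, and the counts below stand beside 10.8% of all tested genes lower and 10.5% higher (7.10% and 8.65% by at least 1.5-fold). Among the STAT6-responsive genes, 9 of 12 were tested, with 3 lower and 1 higher, each by at least 1.5-fold, and a median of -0.63. MAOA, the monoamine oxidase A gene, fell from 1208, 1286 and 1247 to 467, 361 and 372 normalized counts (log2 fold change -1.65, adjusted p = 6.95e-05). IL13RA2 (given above) and IL4R (-0.63, 0.0031), the receptor chain for IL-4, fell too. The number lower was 5 without shControl replicate 1, and the number higher was 2 without shControl replicate 3. CDH26, a cadherin gene, rose (1.41, adjusted p = 0.00186). Among the STAT5-responsive genes, 10 of 14 were tested, with 3 lower and 3 higher and a median of -0.35. The kinase gene PIM1 fell (-1.49, adjusted p = 0.00016), MYC fell (-0.75, 0.00269) and so did CISH (above), while BCL6, a repressor gene, rose (0.90, 0.00477). DUSP6 (0.49, 0.0255) and BCL2L1 (0.38, 0.0323) rose too, each by less than 1.5-fold. Of the STAT5-responsive genes, 5 were lower without shControl replicate 1. The number higher was 1 without shControl replicate 2 or without any single shRNF25 library. CISH, PIM1 and MYC are also regulated by other factors, and IL13RA2 and IL4R are also counted among the receptors. The lists do not separate genes that these STAT factors raise from genes that they lower.

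Genes known to respond to type I interferon rose in part, beside STAT2 and IRF9 that did not pass the test. The list of 29, which holds IRF9 itself, was tested in full, with 8 higher (7 by at least 1.5-fold), 0 lower and a median of 0.40. Among all tested genes, 10.5% were higher (8.65% by at least 1.5-fold) and 10.8% lower. At an unadjusted p below 0.05, 15 genes of the list were higher and 1, HERC5, was lower. In the list edgeR called 8 higher and DESeq2 10, with 0 lower by either tool. RSAD2, an antiviral enzyme gene, went from 134, 211 and 80.9 to 348, 271 and 337 normalized counts (log2 fold change 1.26, adjusted p = 0.0169), and IFIT2, which encodes an RNA-binding antiviral protein, from 753, 787 and 637 to 1702, 1759 and 1558 (1.21, 0.000234). IFI6 and IFI44L rose by 0.97 and 0.86. The number of higher genes was 1, 3 and 2 without shRNF25 replicate 1, 2 and 3, and 15 and 12 without shControl replicate 1 and 2. The number of lower genes was 1 without shControl replicate 1 and 2 without shControl replicate 3. IFIT2 was called in all 16 alternatives, RSAD2 in 14, IFI6 in 15 and IFI44L in 13.

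Of 13 other inhibitors, among them phosphatases and PIAS proteins, all were tested, with a median of -0.24. Beside 10.8% of all tested genes lower and 10.5% higher, 2 of the 13 were lower, neither by 1.5-fold, and 0 higher. The 2 were SH2B3 (log2 fold change -0.50, adjusted p = 0.0191), an adaptor that restrains JAK2, and the ubiquitin ligase gene CBL (-0.38, 0.0386), both named after their values were seen. USP18 was higher at an unadjusted p below 0.05 and was called by DESeq2 and not by edgeR. The count of lower genes in this list was 0 without any single shRNF25 library, and that of higher genes was 1 without shControl replicate 2. Of STAT4 and IRF9, 0 were called in either direction, by limma at an unadjusted p below 0.05, edgeR or DESeq2.

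**Figure D5:**
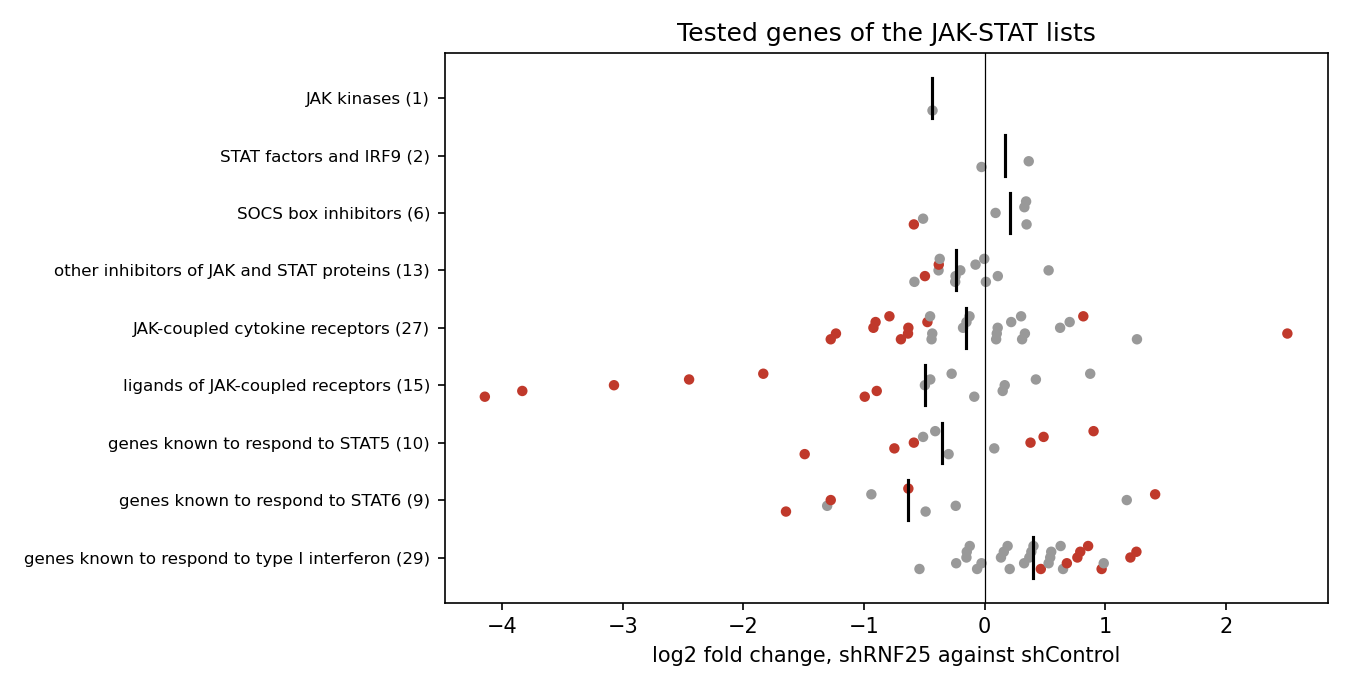
Log2 fold change of shRNF25 against shControl (x axis) for every tested gene of the 9 lists beside the members, a point per gene, red where the limma adjusted p was below 0.05, with a black bar at the median of each list and the number of tested genes in brackets. Ligands reach furthest to the left (CSF3, -4.14), and the genes known to respond to type I interferon have a median of 0.40.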

How the data were processed

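Total RNA of SW839 cells was sequenced after ribosomal RNA depletion with a stranded kit, and the groups were read from the titles (3 shRNF25 and 3 shControl libraries, called biological replicates by the submitters). The submitters' processing notes name fastp, HISAT2 and HTSeq and the GRCh38 build. Versions, the annotation and the strand setting are not given in the sources used here. The authors deposited a normalized count for each gene and library, a signal made by dividing reads by a size factor, and the files were analysed from there. Whole reads came back for 100% of values within 0.01 reads. Between 18647460 and 19943154 reads per library were counted, so genes with few reads such as SOCS1 are the least precise. A gene at 3 reads or fewer in every library was treated as at the floor, which covers counting error only.

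Values were fitted as log2(normalized count + 1) with limma 3.58.1 (eBayes with a trend, R 4.3.3), the group as the only term, over 16554 genes at 10 or more in at least 3 libraries, with Benjamini-Hochberg adjustment over all of them. The log2 fold change of low genes depends on the pseudocount. That of IL3RA was 2.509, with 2.695 at a pseudocount of 0.5 and 1.736 at 5. For this gene edgeR (2.304) and DESeq2 (2.31) gave less than the main fit. Intervals are 95% intervals of that fit. The study used DESeq2, which with edgeR (DESeq2 1.42.0, edgeR 4.0.16) was run on the recovered reads as an alternative. Other alternatives were pseudocounts of 5 and 0.5, no filter or a value of at least 50, quantile and median ratio scaling, a replicate block, library weights by group and each library left out. Single values were tested with two-sided exact permutation tests. The fit was tested on simulated reads with the same dispersion for all genes and both groups. That setting differs from these libraries, so it does not show how the fit behaves with unequal spread. The p-values of the main fit weigh the group difference against the spread between these libraries. That spread is pooled over both groups, although the control libraries spread more widely.

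The members and gene lists were chosen with earlier results of these data known. Named genes were all members, RNF25, up to 4 genes per list and direction with the largest change among those past an adjusted p of 0.05 and a fold change of 1.5, CISH, SOCS3, JAK3 and IRF9, and the 3 genes most like each of the 2 members with the largest change. Gene positions and exon lengths were matched by symbol to GENCODE 29 (GRCh38), promoter windows to RefSeq (GRCh38.p14). Other genes are named only to spell out a small count or a marker list, after their values were seen. Some genes of the lists are not reported here, and the counts leave them out.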

Additional observations from a re-analysis of the deposited data

How the results depend on the processing

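STAT6 and RNF25 were called lower under all 16 alternatives, with log2 fold changes from -0.84 to -0.64 and from -1.34 to -1.15. JAK1 ranged from -0.58 to -0.43 and was called in 15. The count of members lower, 2, was 1 with a fold change of at least 1.5, 0 with at least 2, and 1 to 3 with a library left out. The count of members higher, 0, was 0 to 1 with a library left out (JAK2, without shControl replicate 1). The STAT2 log2 fold change was 0.0048 after quantile normalization and that of IRF9 0.040 after the median ratio scaling and -0.12 to 0.12 with a library left out. Libraries with the same replicate number showed little sign of pairing, with correlations of deviations of -0.0638, -0.0874 and 0.0471. Those of unlike numbers ran from -0.139 to 0.183. With 3 libraries in each group these values cannot settle whether libraries were paired. With the replicate block, the members lower stayed at 2 and higher at 0, with adjusted p of 0.0135 for JAK1, 0.00491 for STAT6 and 0.000371 for RNF25, and CISH lost its call (adjusted p = 0.0571). The median over all genes was shifted to 0.05 by the median ratio scaling. The JAK2 share difference of 1.12 points ranged from 0.761 to 1.76 with a library left out. SOCS1 was not tested at a minimum value of 50. The alternatives for the JAK1 and TYK2 shares and for genes that are no members were chosen after seeing the data. The STAT5A share and the sum of STAT5A and STAT5B were not run, because STAT5A was not analysed here.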
